A study of Mus musculus with 12 samples.

Results

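The Dlx and Msx genes, Dlx1 to Dlx6, Msx1 and Msx2, encode homeobox transcription factors, and their chromatin was described here in mesenchymal stem cells (MSCs) of the mouse, stromal progenitors of the bone, cartilage and fat lineages. The members were the regions of 2 tables, one for each histone mark, that overlapped the body of one of the 8 genes or the 50 kb on each side of it. This window held 15 of 31617 regions of H3K27ac and 13 of 28047 regions of H3K27me3, which made 28 of 59664 regions in all. The rule used position only and no measured value. The genes, and the lists of genes set beside them, were however chosen with earlier results of these data known. The Dlx genes lie in neighbouring pairs, so the windows formed 5 loci, namely Dlx1/Dlx2, Dlx3/Dlx4, Dlx5/Dlx6, Msx1 and Msx2.

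CUT&RUN, in which an antibody directs a nuclease to a chromatin mark and the DNA released around it is sequenced, was applied to H3K27ac and H3K27me3 in MSCs of young mice, 3 to 5 months of age, and old mice, 18 to 22 months of age. All groups were cultured only at 2% O2, and 300000 cells of a sample were divided between a tube for each antibody. There were 3 samples per age and mark, 12 libraries in total. The labels do not say whether the samples of a group came from separate animals, and they give neither strain, sex nor tissue of origin, so the p-values measure the spread between these samples, which may be technical. Total reads, inferred from the deposited signal as described below, were 2750953 to 5541429 for H3K27ac and 3622108 to 9947515 for H3K27me3. Old sample 2 was the shallowest library of both marks. The promoters of all 12 MSC and stromal marker genes examined, such as Pdgfra and Ly6a, carried H3K27ac. Of 7 blood and macrophage markers, Ptprc, Spi1 and Cd79a carried neither mark and Itgam and Cd3e carried H3K27me3 alone, while Cd68 and Csf1r carried H3K27ac. Of 3 markers each, Pecam1 of endothelium and Pparg of adipocytes carried H3K27ac alone and the other two of each list H3K27me3 alone, whereas the chondrocyte genes Acan and Col2a1 carried both marks and Sox9 H3K27ac alone.

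Dlx and Msx proteins bind DNA through a homeodomain and act in the patterning of the limbs, jaws, teeth and skull, where they lie downstream of bone morphogenetic protein (BMP) signalling. Dlx3, Dlx5 and Msx2 are known regulators of osteoblasts, the cells that form bone. Developmental regulators of this kind are classical targets of the Polycomb complexes, which write H3K27me3 over wide domains when a gene is silent. H3K27ac occupies the same residue at active promoters and enhancers, and a given histone tail can carry only one of them, although a cell population or the alleles of a cell can carry both over the same DNA.

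The sequences before 4 of the genes are shown because they differ in base composition and in the mark that covers them. The table of RefSeq promoters held 4 of the 8 genes, Dlx1, Dlx2, Msx1 and Msx2. Each stretch is the 250 bases before the start of the GENCODE gene body, 5′ to 3′ on the strand of the gene, read from GRCm38.p6, and none of them overlaps an annotated UTR. RefSeq places the starts of Dlx1 and Msx2 further into the gene. Capitals mark the letters CCAAT, or ATTGG where the box lies on the other strand.
Dlx1, chr2:71527863-71528112, plus strand, within H3K27me3: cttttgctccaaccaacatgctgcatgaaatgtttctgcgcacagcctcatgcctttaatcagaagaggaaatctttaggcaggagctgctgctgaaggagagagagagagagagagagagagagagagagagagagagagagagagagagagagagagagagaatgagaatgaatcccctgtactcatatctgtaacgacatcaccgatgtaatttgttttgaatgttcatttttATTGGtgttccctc
Dlx2, chr2:71546755-71547004, minus strand, within H3K27ac: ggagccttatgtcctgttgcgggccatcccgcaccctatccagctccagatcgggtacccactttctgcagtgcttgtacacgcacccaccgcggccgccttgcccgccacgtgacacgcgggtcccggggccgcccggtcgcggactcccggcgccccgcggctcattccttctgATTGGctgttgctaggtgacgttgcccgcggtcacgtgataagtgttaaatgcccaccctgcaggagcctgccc
Msx1, chr5:37824584-37824833, minus strand, within both marks: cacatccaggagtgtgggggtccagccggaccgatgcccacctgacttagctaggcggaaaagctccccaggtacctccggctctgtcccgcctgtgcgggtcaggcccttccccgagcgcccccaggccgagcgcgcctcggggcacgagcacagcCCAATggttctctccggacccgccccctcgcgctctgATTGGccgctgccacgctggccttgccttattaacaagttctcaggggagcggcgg
Msx2, chr13:53473075-53473324, minus strand, within H3K27me3: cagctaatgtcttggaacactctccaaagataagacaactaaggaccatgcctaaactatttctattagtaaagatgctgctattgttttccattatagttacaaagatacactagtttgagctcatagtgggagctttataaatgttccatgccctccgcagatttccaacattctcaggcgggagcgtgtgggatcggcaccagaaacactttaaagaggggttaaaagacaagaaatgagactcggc
The stretch before Dlx2 held 24 CpG and that before Msx1 held 21, and 87.3% and 82.0% of the 21931 protein-coding genes with such a stretch had fewer. The stretches before Dlx1 and Msx2 held 3 and 5 CpG, below the median of 8. As RefSeq places the starts of both further into the gene, these counts may not describe their promoters. The H3K27me3 domains over the starts of Dlx1 and Msx2 had 26.6 and 15.9 CpG per kb, against a median of 8.60 over all H3K27me3 regions. Dlx1 and Dlx2 each had 1 CCAAT box, Msx1 had 2 and Msx2 had none, where 36.0% of all genes had at least 1. The letters TAATTA, a core bound by many homeodomains, which read alike on both strands, were in none of the 4 stretches and in 4.99% of all. A match of letters is a description of the sequence and not a site of binding.

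At the transcription start sites (TSS), H3K27me3 prevailed. A region of H3K27me3 lay within 1 kb of the TSS of 7 of the 8 genes, against 33.8% of 21951 protein-coding genes, and H3K27ac did so at 3 of the 8, against 53.7%. Dlx1, Dlx3, Dlx4, Dlx6 and Msx2 carried H3K27me3 alone, a state found at 24.8% of all genes. Dlx5 and Msx1 carried both marks, as did 8.99% of all genes. Dlx2 alone had H3K27ac without H3K27me3, the state of 44.7% of all genes. Within 5 kb of the TSS the count was 8 of 8 for H3K27me3, against 46.6% of all genes, and 3 of 8 for H3K27ac, against 57.4%. Every member region had been called by the authors in old and young cells together, so no member was present at only one age. With shared regions, a mark over a pair of neighbours cannot be assigned to either gene.

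**Figure D1:**
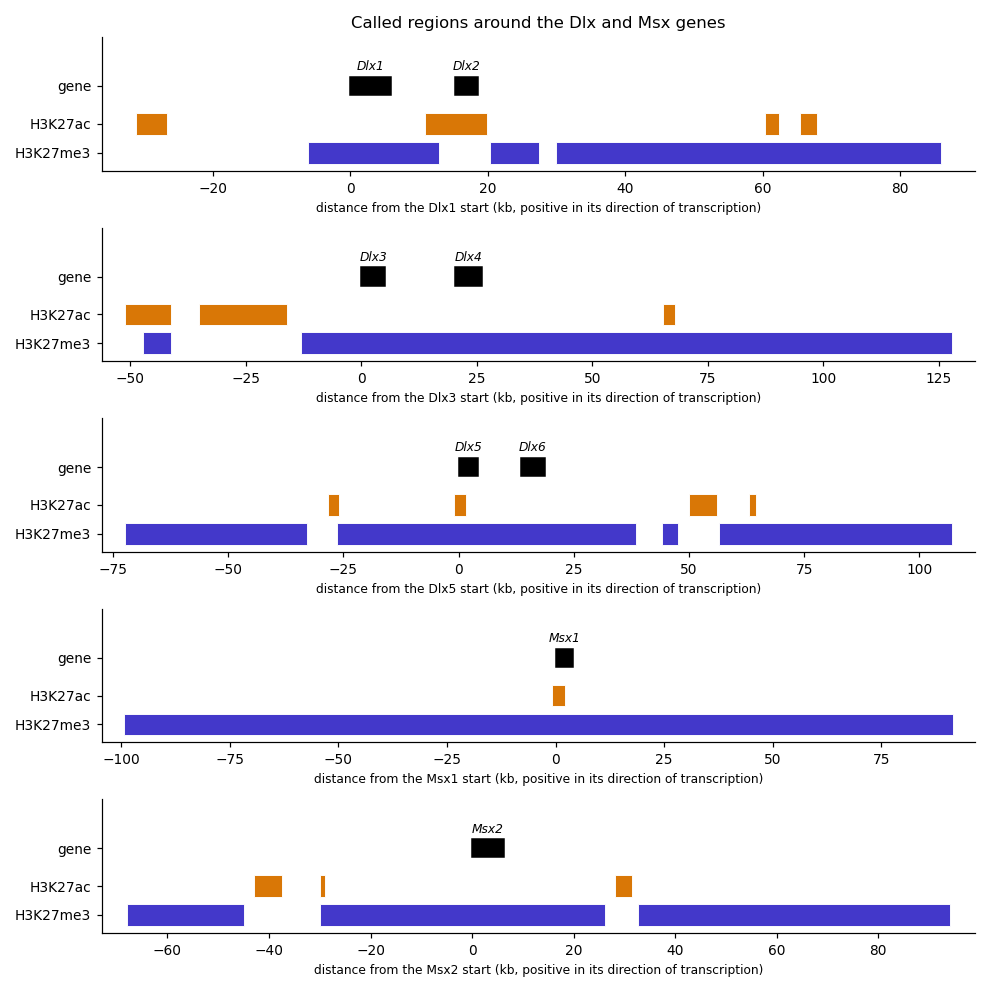
Called regions of H3K27ac (orange) and H3K27me3 (blue) and the gene bodies (black) at the 5 loci, with the distance from the start of the gene named under each panel in kb. Domains of H3K27me3 cover 7 of the 8 genes, and the Dlx2 body lies in a gap between such domains that H3K27ac fills.

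The H3K27me3 regions of these loci were long and dense. Their median length was 50.5 kb, against 10.5 kb over all H3K27me3 regions, and their median signal per kb was 2.60, against 1.47. Here 1 unit of signal is taken as 0.5 reads per 1000000 library reads, after scaling between the libraries of a mark. A member region held a median of 402 reads per library, against 58. The H3K27ac regions were short, with a median of 3.0 kb against 4.0 kb, and their signal per kb was 2.16 against 2.20. They held a median of 16 reads per library, against 21, so single H3K27ac values are imprecise. Of the 15 H3K27ac regions 10 overlapped H3K27me3 by at least 1 bp, where 15.7% of all H3K27ac regions did, and of the 13 H3K27me3 regions 9 overlapped H3K27ac, where 14.9% did. A long region is more likely to overlap another, and the H3K27me3 members were long. No share matched for length was taken, so the excess of the 9 is not read as a trait of these genes. CpG density was 11.8 per kb in the median H3K27me3 member, against 8.60 over all, and 11.9 against 11.2 for H3K27ac. The H3K27ac regions over the starts of Msx1, Dlx2 and Dlx5 had the highest CpG densities of the 15, at 50.3, 46.3 and 44.0 per kb.

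Per kb, the H3K27me3 domain over Dlx1 had the highest signal of the domains that cover a start, 4.38 ± 0.883 (SD, n = 6 libraries of both ages). It was followed by Dlx5/Dlx6 with 3.63 ± 0.497, Msx1 with 3.17 ± 0.366, Msx2 with 2.93 ± 0.563 and Dlx3/Dlx4 with 2.81 ± 0.433. Neighbours in this order differed by less than the larger of their SDs, and the order of the last of them depended on age: Msx2 had 3.30 and Dlx3/Dlx4 2.85 in young cells, and 2.56 and 2.76 in old cells. The Dlx1 domain exceeded 98.7% of the 5611 H3K27me3 regions that cover a protein-coding TSS, and the Dlx3/Dlx4 domain exceeded 82.1%. For H3K27ac the Dlx2 region led with 3.32 ± 0.688 per kb, above 90.9% of the 8869 H3K27ac regions over a TSS. Msx1 with 2.09 ± 0.882 and Dlx5 with 1.88 ± 0.375 exceeded 30.7% and 15.6% of them, and their order differed between the ages. In young cells Dlx5 had 2.21 ± 0.102 and Msx1 1.60 ± 0.156 (SD, n = 3), with the samples apart, and in old cells Dlx5 had 1.55 ± 0.101 and Msx1 2.58 ± 1.10, where the samples overlapped.

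Old and young cells were then compared region by region. No member region passed the test in either mark, that is, none had an adjusted p-value under 0.05 in limma with Benjamini-Hochberg adjustment over the whole table. In H3K27ac, 0 of 15 members were called, and 0.0822% of all regions were. Of the 15, 3 had an unadjusted p under 0.05, 1 with a higher and 2 with a lower value in old cells, against 9.6% of all regions. In 3 of the 15 the ranges of the ages were apart, against 14.5% of all regions. In H3K27me3, 0 of 13 were called, and 0.488% of all regions were. Of the 13, 4 had an unadjusted p under 0.05, and all 4 had the lower value in old cells, against 13.9% of all regions in either direction. In 3 of the 13 the ages did not overlap, 2 with lower and 1 with higher values in old cells, against 19.1% of all regions. The log2 fold change, old over young, had a median of -0.09 over the H3K27ac members and -0.06 over the H3K27me3 members, beside -0.00 and -0.01 over all regions.

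**Figure D2:**
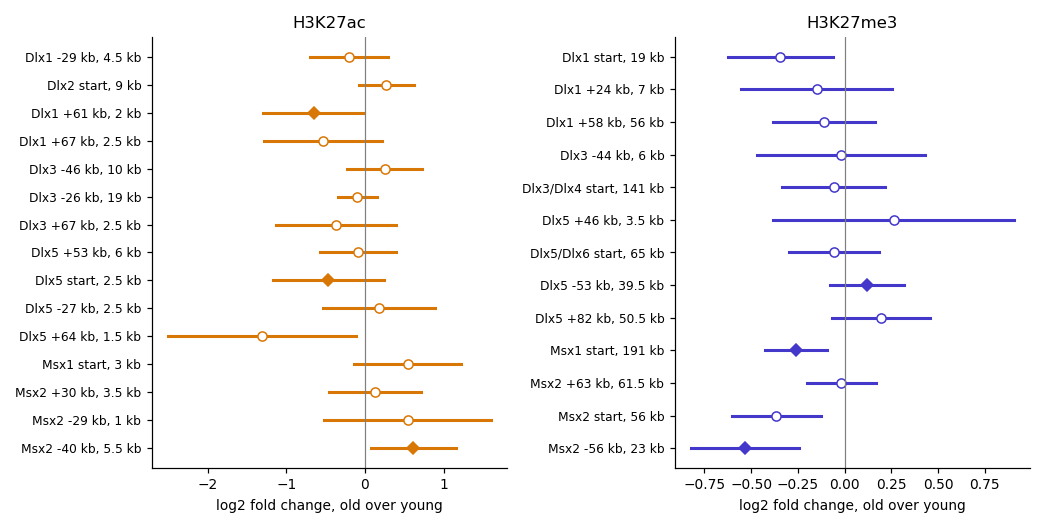
Log2 fold change, old over young, of the 15 H3K27ac and 13 H3K27me3 regions with 95% confidence intervals from limma. Labels give the gene start covered, or the distance of the region's centre from the named gene's start in its direction of transcription, and the region's length; filled diamonds mark regions in which the ranges of the ages were apart, 3 in each mark.

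Dlx1 and Dlx2 are neighbours best known from interneurons of the forebrain and from the branchial arches, the embryonic source of the jaw. Their chromatin was split: a 19 kb domain of H3K27me3 covered Dlx1, its antisense transcript Dlx1as and the 3′ end of Metap1d (chr2:71522001-71541000), and a 9 kb region of H3K27ac covered the whole of Dlx2 (chr2:71539001-71548000). The marks overlapped by 2.0 kb between the genes, and a second H3K27me3 domain began 0.501 kb beyond the H3K27ac region. The H3K27ac signal over Dlx2 was 21.9, 28.3 and 30.6 in the young samples and 29.5, 40.9 and 28.0 in the old samples. The ages overlapped, and old sample 2, with 52 reads, was the highest. The means were 26.9 ± 4.51 and 32.8 ± 7.04 (SD, n = 3), a log2 fold change of 0.27 (SE 0.17, 95% CI -0.07 to 0.62, limma adjusted p = 0.646). It was 0.11 without old sample 2, 0.13 without young sample 1 and 0.16 on the signal as deposited. The H3K27me3 domain over Dlx1 had a signal of 88.9, 83.1 and 106 in young cells and 93.2, 65.4 and 62.4 in old cells. Old samples 2 and 3 lay below every young sample and old sample 1 lay among them. The means were 92.7 ± 12.0 and 73.7 ± 17.0 (SD, n = 3), with a log2 fold change of -0.35 (SE 0.13, 95% CI -0.63 to -0.06, limma adjusted p = 0.243).

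Upstream of the Dlx2 start, a 56 kb domain of H3K27me3 (chr2:71558001-71614000) enclosed 2 small intergenic H3K27ac regions. The nearer of them, 41.7 kb from the Dlx2 TSS (chr2:71588501-71590500), had an H3K27ac signal of 7.51, 6.92 and 7.89 in young and 4.78, 5.50 and 3.57 in old cells. Each old sample was below each young sample, on 7 to 24 reads per library. The log2 fold change was -0.65 (SE 0.32, 95% CI -1.29 to -0.01, limma adjusted p = 0.514). The domain around it had a log2 fold change in H3K27me3 of -0.11 (SE 0.13).

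Dlx3, a regulator of osteoblasts, hair and teeth, and its neighbour Dlx4 lay inside a single 141 kb domain of H3K27me3 (chr11:95107001-95248000), which also covered the antisense transcript Dlx4os. Its signal was 361, 381 and 464 in young and 410, 456 and 302 in old cells. The ages overlapped widely, with the lowest value in old sample 3 and the highest in young sample 3. The means were 402 ± 54.5 and 389 ± 78.8 (SD, n = 3), and the log2 fold change was -0.06 (SE 0.13, 95% CI -0.34 to 0.22, limma adjusted p = 0.887). No H3K27ac region lay within 5 kb of either TSS. The longest H3K27ac member, 19 kb of intergenic DNA (chr11:95085001-95104000), ended 3.00 kb before this domain, between Dlx3 and Itga3, an integrin gene. Its signal was 50.6, 61.7 and 51.6 in young and 49.0, 50.3 and 53.5 in old cells, with a log2 fold change of -0.10 (SE 0.12, 95% CI -0.35 to 0.16, limma adjusted p = 0.857).

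Dlx5 and Dlx6 act together in the limb and the lower jaw, and Dlx5 is also a regulator of osteoblasts. Both lay in a 65 kb domain of H3K27me3 (chr6:6843501-6908500) with the antisense transcripts Dlx6os1 and Dlx6os2. The domain's signal was 207, 237 and 276 in young and 244, 260 and 190 in old cells, so that the ages overlapped. The log2 fold change was -0.06 (SE 0.12, 95% CI -0.30 to 0.19, limma adjusted p = 0.872). Inside this domain, a 2.5 kb region of H3K27ac covered the start of Dlx5 with its UTR (chr6:6880501-6883000), and none covered the start of Dlx6. Its H3K27ac signal was 5.55, 5.77 and 5.26 in young and 3.59, 3.93 and 4.08 in old cells. Every old sample lay below every young sample, on 5 to 17 reads per library. The means were 5.53 ± 0.255 and 3.87 ± 0.251 (SD, n = 3), but the fitted spread of regions with so few reads was wider, and the log2 fold change was -0.47 (SE 0.35, 95% CI -1.17 to 0.24, limma adjusted p = 0.713).

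Beside the Dlx5/Dlx6 domain, a further domain of 39.5 kb near Sdhaf3 (chr6:6915001-6954500) was the H3K27me3 member whose old samples all lay above the young. Its signal was 88.7, 103 and 104 in young and 108, 107 and 105 in old cells. The difference between the nearest samples of the ages was small, and the log2 fold change was 0.12 (SE 0.09, 95% CI -0.08 to 0.32, limma adjusted p = 0.621). On the other side, an H3K27ac region of 1.5 kb within the H3K27me3 domain over part of Dlx6os1 (chr6:6817501-6819000) held 12, 9 and 8 reads in young and 9, 0 and 4 in old cells. The 0 reads in old sample 2 allow a scaled signal of up to 2.36, and the log2 fold change of -1.31 (SE 0.59, limma adjusted p = 0.470) depends on the pseudocount.

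**Figure D3:**
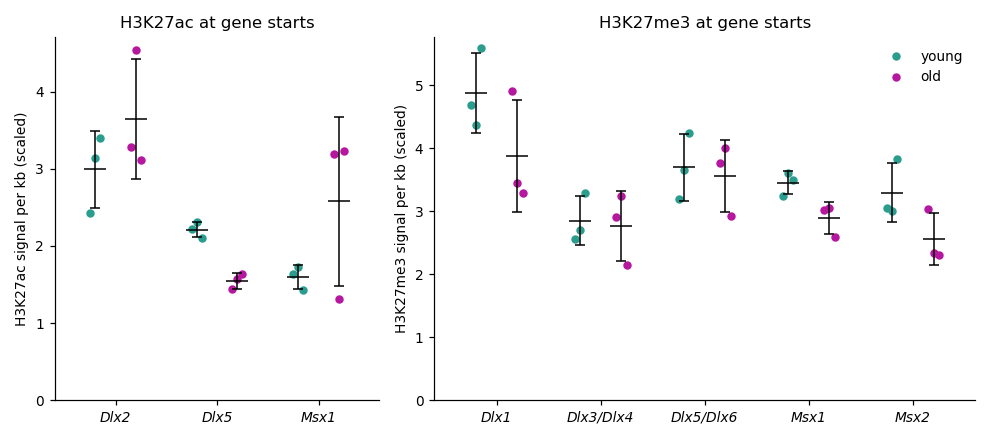
Signal per kb, scaled between libraries, of the regions that cover the starts of the genes, for H3K27ac (left) and H3K27me3 (right); points are the 3 young and 3 old samples, and black bars the mean and SD. The ages do not overlap at Dlx5 in H3K27ac and at Msx1 in H3K27me3.

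Msx1, a regulator of tooth and palate development, lay in the longest member, a 191 kb domain of H3K27me3 (chr5:37733001-37924000) that also covered Cytl1, a gene for a secreted protein. The H3K27me3 signal was 620, 688 and 669 in young and 577, 582 and 495 in old cells. Each old sample lay below each young sample, on 1023 to 3419 reads per library. The means were 659 ± 34.7 and 551 ± 48.6 (SD, n = 3), a log2 fold change of -0.26 (SE 0.08, 95% CI -0.43 to -0.09, limma adjusted p = 0.131). Among the 901 H3K27me3 regions of at least 100 kb, the median log2 fold change was -0.09, and 24.6% likewise had every old sample below every young sample. A 3 kb region of H3K27ac over the Msx1 start, with exons and UTR (chr5:37822501-37825500), had a signal of 4.90, 5.19 and 4.28 in young and 9.57, 3.93 and 9.68 in old cells. Old samples 1 and 3 were above every young sample, and old sample 2, with 5 reads, was below them. The log2 fold change was 0.54 (SE 0.34, 95% CI -0.14 to 1.23, limma adjusted p = 0.646).

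Msx2, a regulator of the skull sutures and of osteoblasts, was flanked by 3 domains of H3K27me3 separated by gaps, and its start was covered by the middle domain (chr13:53447001-53503000, 56 kb). The signal of this domain was 170, 168 and 215 in young and 170, 131 and 129 in old cells. Old samples 2 and 3 were below the young range and old sample 1 was within it. The means were 185 ± 26.2 and 143 ± 23.1 (SD, n = 3), a log2 fold change of -0.37 (SE 0.11, 95% CI -0.60 to -0.13, limma adjusted p = 0.137). The domain upstream of Msx2 (chr13:53518001-53541000, 23 kb), which overlaps the uncharacterised genes Gm34022 and Gm5449, had the smallest p-value of all members. Its signal was 54.5, 49.3 and 60.2 in young and 44.3, 29.6 and 40.3 in old cells, without overlap of the ages. The means were 54.7 ± 5.43 and 38.0 ± 7.61 (SD, n = 3), a log2 fold change of -0.53 (SE 0.14, 95% CI -0.82 to -0.24, limma adjusted p = 0.0827). The third domain, downstream of the gene (61.5 kb), had a log2 fold change of -0.02 (SE 0.09).

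H3K27ac at the Msx2 locus lay away from the gene. In the gap between its upstream domains, a 5.5 kb region in an intron of Gm34022, 37.4 kb from the Msx2 TSS (chr13:53510501-53516000), had an H3K27ac signal of 6.86, 8.66 and 8.55 in young and 9.17, 18.1 and 11.7 in old cells. All old samples were above all young samples, although old sample 1 was so by little. The means were 8.02 ± 1.01 and 13.0 ± 4.59 (SD, n = 3), a log2 fold change of 0.62 (SE 0.26, 95% CI 0.08 to 1.15, limma adjusted p = 0.440).

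Summed over all regions that touched the window of each locus, the picture was alike. Each region was counted at its full length, so the sums include signal outside the window, as with the 191 kb domain at Msx1. No locus passed the test in H3K27ac, where 0.684% of the windows of 17245 protein-coding genes did, or in H3K27me3, where 0.436% of 17442 did. For H3K27ac 1 of the 5 loci had an unadjusted p under 0.05, against 12.1% of windows, and none was without overlap of the ages, against 16.6%. That locus was Msx2, with 13.4, 18.5 and 20.1 in young and 18.3, 29.9 and 22.9 in old cells, a log2 fold change of 0.44 (SE 0.20, 95% CI 0.03 to 0.84, limma adjusted p = 0.368). It was 0.17 with windows of 100 kb on each side, 0.26 without old sample 2 and 0.27 without young sample 1. For H3K27me3 2 of the 5 loci had an unadjusted p under 0.05, against 14.4% of windows, and the ages did not overlap in 1, Msx1, against 19.6%. The H3K27me3 sum at Msx1 is that of its only domain, and over the windows its adjusted p in limma was 0.191. The sum at Msx2 was 404, 415 and 471 in young and 404, 364 and 342 in old cells, a log2 fold change of -0.22 (SE 0.08, limma adjusted p = 0.262). At Dlx1/Dlx2 the log2 fold changes were -0.03 (SE 0.13) in H3K27ac and -0.21 (SE 0.12) in H3K27me3. At Dlx3/Dlx4 they were -0.02 (SE 0.11) and -0.06 (SE 0.12), and at Dlx5/Dlx6 -0.21 (SE 0.17) and 0.04 (SE 0.09).

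The share of reads that lay in called regions of H3K27me3 was 62.3 to 66.6% in young and 53.8 to 60.8% in old libraries, without overlap. For H3K27ac it was 33.7 to 41.4% in young and 33.4 to 39.2% in old libraries, and the ages overlapped. The scaling between libraries takes the typical region as unchanged, and without it the median log2 fold change of all regions moved to -0.12 in H3K27ac and -0.13 in H3K27me3. The scaling removes this shift, and the values given above are relative to it. On the signal as deposited, the H3K27me3 sum at Msx1 and the domain over the Msx2 start had log2 fold changes of -0.38 and -0.49 and passed the test (limma adjusted p = 0.0461 and 0.0443). The domain upstream of Msx2 had -0.65 and passed as well (limma adjusted p = 0.0183). The Msx1 domain tested as a region did not pass (limma adjusted p = 0.0626). On that signal 655 of 17442 H3K27me3 windows passed, 635 of them lower in old cells. Of the 28047 H3K27me3 regions 774 passed, 753 of them lower.

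The balance of the marks was taken as the log2 ratio of the H3K27ac sum to the H3K27me3 sum in the same sample. The tables of the marks were normalised separately, so its level is arbitrary to that extent, the difference between ages is the quantity of interest, and no test was made. For this reason the ratio is not read as an excess of either mark. The mean balance in young cells was -2.03 at Dlx1/Dlx2, -2.45 at Dlx3/Dlx4, -3.85 at Dlx5/Dlx6, -4.61 at Msx2 and -6.96 at Msx1, beside a median of -0.49 over all windows with both marks. At Msx2 the balance was -4.86, -4.45 and -4.52 in young and -4.42, -3.58 and -3.87 in old cells. The ages did not overlap, with old sample 1 just above young sample 2, and the mean difference, old minus young, was 0.65 on the log2 scale. The difference was 0.39 with windows of 100 kb on each side. A window of 10 kb held no H3K27ac region at Msx2, so it gives no balance of the marks. At Msx1 it was -6.85, -6.92 and -7.13 in young and -5.84, -7.04 and -5.61 in old cells, where old sample 2 lay within the young range and the mean difference was 0.80, or 1.24 without old sample 2 and 0.52 without old sample 3. The H3K27ac side of this ratio at Msx1 rests on 5 to 24 reads per library.

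For the Dlx pairs the balance overlapped between the ages, with mean differences of 0.18 at Dlx1/Dlx2, 0.04 at Dlx3/Dlx4 and -0.25 at Dlx5/Dlx6. Thus 1 of the 5 loci was without overlap, against 19.3% of the 15658 windows with both marks. The median difference over these windows was 0.06, and it was above 0 in 60.8% of them.

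**Figure D4:**
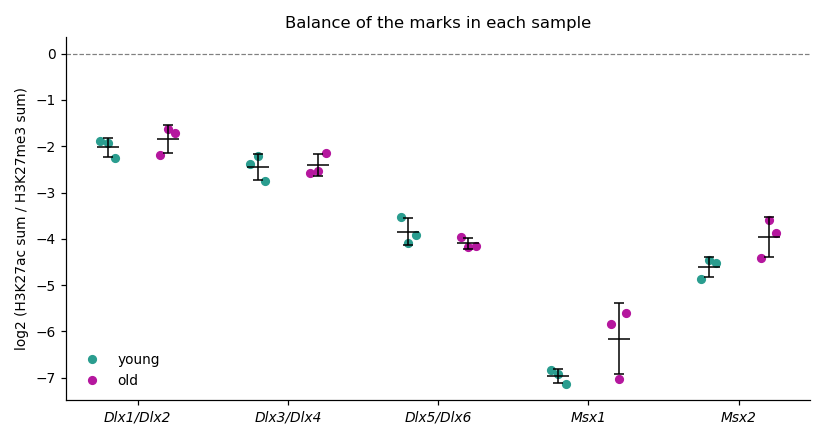
Log2 ratio of summed H3K27ac to summed H3K27me3 signal at the 5 loci; points are the 3 young and 3 old samples, black bars the mean and SD, and the dashed line equal sums. The ratio is below 0 at every locus, and the ages are apart only at Msx2.

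At the starts of the upstream BMP pathway, H3K27ac was the more frequent mark. Of 18 genes of the pathway, 12 carried H3K27ac alone, the state of 44.7% of all genes. Among them were the receptors Bmpr1a, Bmpr2 and Acvr1, the signal transducers Smad1, Smad4 and Smad5 and the target genes Id1, Id2 and Id3. The ligands Bmp2, Bmp4 and Bmp7 and the antagonist Nog carried H3K27me3 alone, and Bmpr1b and the antagonist Grem1 carried both. In H3K27ac 0 of 14 regions passed the test, beside 0.0822% of all regions. In H3K27me3 1 of 6 did, beside 0.488% of all regions and 0.555% of those of at least 100 kb. The region that passed was the 248.5 kb domain over Bmp7. Its H3K27me3 signal was 744 ± 16.0 in young and 572 ± 33.7 in old cells (SD, n = 3) and fell by 0.38 on the log2 scale (SE 0.07, limma adjusted p = 0.0259). Of all H3K27me3 regions of at least 100 kb, 76.4% had a lower value in old cells. Among 8 osteoblast genes, 5 carried H3K27ac alone, including the master regulators Runx2 and Sp7, Alpl carried both, Ibsp H3K27me3 alone and Bglap neither. None of their 6 H3K27ac and 2 H3K27me3 regions passed the test.

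Other homeobox genes of the skeleton and body plan resembled the Dlx and Msx genes in part. Of 23, 10 carried H3K27me3 alone, 8 both marks and 5 H3K27ac alone, among the last Prrx1 and Prrx2 of the limb mesenchyme. In H3K27me3 0 of 18 regions passed the test, 11 had an unadjusted p under 0.05, beside 13.9% of all H3K27me3 regions, and 17 had a lower value in old cells with a median log2 fold change of -0.24. Over all H3K27me3 regions 48.6% had a higher value in old cells, and of those of at least 100 kb 76.4% had a lower one. The smallest adjusted p among them was that of Alx1, a regulator of craniofacial cartilage (log2 fold change -0.58, SE 0.14, limma adjusted p = 0.0686). In H3K27ac 0 of 13 passed the test, with a median of -0.04.

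The H3K27me3 profile over the 6 libraries that lay nearest to the mean of the members' 5 start-covering domains was that of Vgll2, a cofactor of muscle gene expression. The candidates were 5606 domains over a TSS. The measure was the Euclidean distance of log2 scaled signal per kb. Nefl, a neurofilament gene, Twist2, a regulator of mesenchyme, 4930447C04Rik and Atoh7, a regulator of the retina, followed. Their distances were between 0.125 and 0.145. The Vgll2 domain had a mean of 3.54 signal per kb in young and 3.14 in old cells, beside 3.57 and 3.07 for the members.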

How the data were processed

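H3K27ac and H3K27me3 CUT&RUN was measured in MSCs of both ages. For each mark the authors deposited a table of called regions with 1 signal value per replicate, in steps of 500 bp. The deposited signal was taken as reads divided by the library total (per 1000000 reads) and by a constant 0.5 kb, not by region length. Within 0.1 read, 100% of values in the 12 columns were whole multiples of 1 read. These multiples do not fix the constant, so the 0.5 kb, and with it the read totals and shares of reads, was inferred. The submitters' processing notes name Bowtie2, Picard and mm10/GRCm38, and the peak caller is not given in the sources used here. Of columns with per-sample values, 0 were unused. The supplied paper compares oxygen levels and does not describe these libraries. Yeast DNA of the stop buffer was not analysed here.

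Groups were taken from the labels. Within a mark, columns were scaled with RLE factors, the median of ratios (0.905 to 1.125), and log2(signal + 0.5) of all regions was fitted with limma 3.58.1 in R 4.3.3, with trend and robust moderation, two-sided, with Benjamini-Hochberg adjustment over all regions and no filter on low values. Fold changes on this scale understate those of regions with few reads. Sums over the windows of all protein-coding genes of the GENCODE vM21 basic set were fitted likewise. The members and lists were chosen with earlier results of these data known. All 8 genes were named, with every region over a start, and in each mark up to 4 other regions with the smallest p under 0.05 and no overlap of the ages. The regions at Itga3, Sdhaf3 and Dlx6os1, the flanking domains and single list genes were named after their values were seen. Tested on simulated data, limma recovered 59 of 100 regions changed 2-fold and 99 of 100 changed 4-fold among 31617 for H3K27ac. For H3K27me3 it recovered 81 and 99 of 100 among 28047. The changed regions were drawn only from those with mean read counts above the median of 16 of the H3K27ac members. All simulated regions had the same fixed dispersion. These rates therefore do not give the recovery for members with few reads. Alternatives were other scalings, pseudocounts, tests (edgeR 4.0.16 and DESeq2 1.42.0 on the recovered reads), windows, a replicate block and leaving out each replicate.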

Additional observations from a re-analysis of the deposited data

How the results depend on the processing

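Of the alternatives tried, 358 values kept their direction and their side of the threshold or, for values without a test, stayed within a set tolerance. A further 19 changed direction, 4 moved and 2 passed the threshold. The tolerance allowed changes of sign near 0. The 358 include the balance with 10 kb windows at Dlx3/Dlx4 and Msx2, which held no H3K27ac region there, so these values reflect H3K27me3 alone. The balance difference at Dlx3/Dlx4, counted among the 358, went from 0.037 to -0.12 without young sample 3 and to -0.099 without old sample 3. The count of H3K27me3 members called was 1 in edgeR on the recovered reads, 1 with the replicate block and 2 on the signal as deposited, against 0. The domain upstream of Msx2 was called under each of these (log2 fold change -0.46, -0.53 and -0.65), and on the signal as deposited also the domain over the Msx2 start (-0.49) and the H3K27me3 sum at Msx1 (-0.38). Replicate numbers did not pair young with old samples: correlations of same-numbered samples' deviations were -0.05 to 0.07 for H3K27ac and -0.08 to 0.04 for H3K27me3. The block moved the calls over the table of H3K27ac from 26 to 81 and of H3K27me3 from 137 to 309, and edgeR gave 96 and 394. Calls also numbered 63 and 201 with a pseudocount of 2, 14 and 71 with 0.1, 6 and 76 in DESeq2, 0 and 35 without trend and robust moderation and 105 and 774 on the signal as deposited, while leaving out a replicate gave 2 to 45 and 10 to 313. Of the calls as deposited, 16 of 105 and 21 of 774 were higher in old cells, against 10 of 26 and 23 of 137 after scaling.

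Fold changes near 0 had no stable direction. The H3K27ac sum at Dlx1/Dlx2 became 0.27 with a 10 kb window and 0.023 with 100 kb, and that at Dlx3/Dlx4 became 0.035 with 100 kb. The H3K27me3 sum at Dlx5/Dlx6 became -0.057 with 10 kb, -0.0064 with signal prorated by overlap and -0.083 on the signal as deposited. The balance difference at Dlx1/Dlx2 was 0.59 with 10 kb. Windows of another size sum other regions. With 10 kb, the H3K27ac sum at Dlx1/Dlx2 was the region over the Dlx2 start alone. The H3K27me3 sum at Dlx5/Dlx6 was then the start domain alone. The cause of the other shifts was not tested. On leaving out each replicate, the H3K27ac sums ranged from -0.13 to 0.033 at Dlx1/Dlx2 and from -0.084 to 0.065 at Dlx3/Dlx4, the H3K27me3 sums from -0.18 to 0.11 at Dlx3/Dlx4 and from -0.054 to 0.13 at Dlx5/Dlx6, and the start domains from -0.18 to 0.12 at Dlx3/Dlx4 and from -0.16 to 0.083 at Dlx5/Dlx6. Over all alternatives the adjusted p ranged from 0.0461 to 0.605 for the Msx1 H3K27me3 sum and from 0.0443 to 0.489 for the Msx2 start domain. The H3K27ac difference at the Msx1 start was 0.34 to 0.94 on leaving out a replicate and was highest without old sample 2. With 3 samples an age, a member difference of 2-fold in H3K27ac could be missed.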
